A study of Mus musculus with 152 samples.

Results

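Liver RNA from C57BL/6J mice that had eaten LIDPAD for 48 weeks was compared with liver RNA from mice kept on the control diet for the same time. LIDPAD is a diet made to bring on non-alcoholic fatty liver disease, and C57BL/6J is an inbred laboratory strain. Both groups started their diet at 8 weeks of age and were therefore 56 weeks old at collection. Neither group carries an engineered allele in the labels, and sex and the hour of collection are not stated in the sources used here. The members were all 28 samples labelled with 48 weeks of diet, of 152 samples in the series, 16 on LIDPAD and 12 on control diet. The samples came in blocks of 4 consecutive numbers whose read counts differed by no more than sampling of read pairs from a single library gives (chi-square per gene 2.05 to 2.11 within blocks, 3.05 to 28.5 between blocks of a group). Each block was counted as 1 library, which left 4 LIDPAD libraries and 3 control libraries. The labels do not state whether each library is a mouse of its own, and p-values therefore measure variation between libraries that could be technical.

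In fatty liver disease, hepatocytes store triglyceride in lipid droplets, and over time the tissue recruits macrophages and lymphocytes and lays down collagen made mainly by stellate cells. Hepatocytes along the lobule divide their work, with urea formation and amino acid breakdown near the portal tract and drug metabolism near the central vein. Hepatocytes also make cholesterol, under the transcription factor SREBP2, whose activity falls when cells hold enough sterol.

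Values are FPM, read counts divided by the authors' size factor per sample and expressed per 1000000, averaged over the 4 columns of a library. Libraries held 18.4 to 34.6 M (1000000 reads) on LIDPAD and 26.9 to 29.2 M on control diet. Of 54532 genes, 14807 reached 1 FPM in at least 3 libraries and were tested. A gene can reach that level through the LIDPAD libraries alone, or through the control libraries alone, and must then differ. Counts and medians over the tested members of a list therefore describe only members high enough to test. Log2 differences are LIDPAD minus control on log2(FPM + 0.5), with their standard error, and they understate the change of low genes. A gene was called higher or lower at an adjusted p under 0.05 (limma, two-sided, Benjamini-Hochberg over all tested genes). With all 7 libraries 968 genes were called higher in LIDPAD (6.54% of those tested) and 494 lower (3.34%). Every LIDPAD library lay above every control library for 2091 genes (14.1%) and below every control library for 1579 genes (10.7%). All 968 genes called higher and all 494 called lower were among these. A remark below that groups were separate therefore adds no support to a call. The shares of 6.54% and 3.34% are the background for list counts of calls with 7 libraries. For list counts of separate groups the background is 14.1% above and 10.7% below. The median difference over all tested genes was 0.01, and rescaling each library to the same total moved it by 0.26, because LIDPAD libraries summed to 871445 to 948005 FPM and control libraries to 985185 to 1178840 FPM. After that rescaling 2879 genes were called higher and 190 lower, so that 93.8% of calls were rises, against 66.2% at the authors' scaling.

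One control library went against its group, and the list counts below are given with it and without it. On the first principal component, with 61.9% of the variance, the LIDPAD libraries sat between -25.7 and -22.1, whereas control libraries 1, 2 and 3 sat at 61.8, 55.7 and -21.3. On the second component, with 20.4%, control library 3 stood alone at -50.5 and the other 6 libraries lay between -4.15 and 13.1. Without control library 3 there were 3254 genes called higher (22.3% of 14610 tested) and 2252 lower (15.4%). Those calls took in all 968 genes called higher with 7 libraries and 481 of the 494 called lower. The shares of 22.3% and 15.4% are the background for the list counts given without control library 3. For 2435 of the 3254 higher genes (74.8%) and 1522 of the 2252 lower genes (67.6%), control library 3 was nearer the LIDPAD mean than the mean of the other 2 control libraries. The larger counts therefore rest on 2 control libraries, and the smaller counts on a control group that is not uniform. Which of these describes control livers at this age was not tested. Leaving out any library other than control library 3 lowered the counts, to 67 to 276 higher and 67 to 207 lower. Of the genes called with 7 libraries and named below, 24 were called whichever library was left out: the falls of Sqle, Hmgcs1, Mvd, Idi1, Cyp51, Hsd17b7, Slc22a7, Cyp2f2, Etnppl, Hal, Asl, Tat, Gstp1, Atf4, Nfil3 and Tiam2 and the rises of Plin4, Cfd, Trem2, Atp6v0d2, Dcn, Efemp1, Lrat and Adgrv1. Each other named call was lost, or its gene fell under the filter, in at least 1 of those fits.

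**Figure D1:**
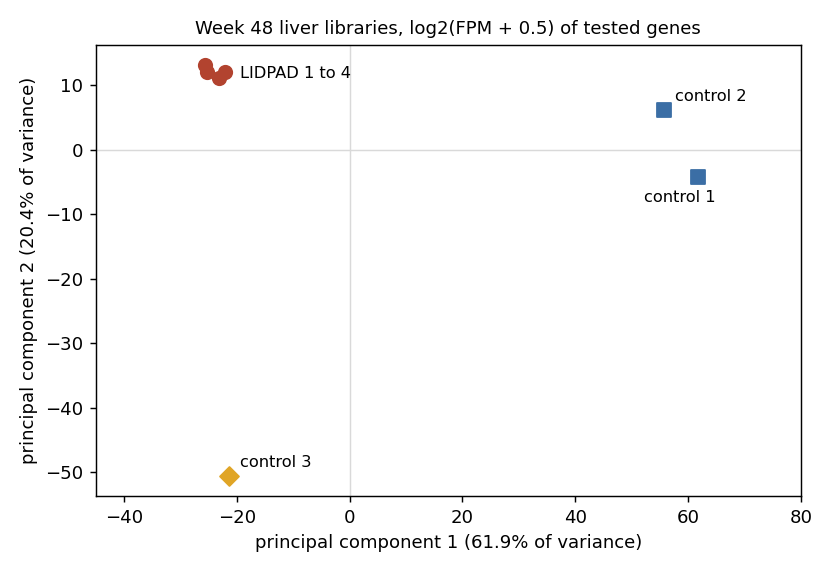
Principal components of the 7 libraries at 48 weeks, from log2(FPM + 0.5) of the tested genes. Circles are LIDPAD libraries, squares control libraries 1 and 2, and the diamond control library 3, which lies at -21.3 on the first component beside the LIDPAD libraries (-25.7 to -22.1) and alone at -50.5 on the second.

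Control library 3 shared some features with the LIDPAD livers and had others that neither group showed. The male-biased steroid dehydrogenase gene Hsd3b5 had 1.24, 0.49, 0.76 and 0.47 FPM in the LIDPAD libraries, against 186, 179 and 1.02 FPM in the control libraries. H19, an imprinted fetal liver RNA chosen after its values were seen, had 2.83, 7.11, 3.26 and 8.79 FPM in the LIDPAD libraries, against 6.12, 1.69 and 934 FPM in the control libraries. The 15 control libraries of the other feeding times, scaled in their own tables, held no more than 1.02 FPM of H19, and the 16 LIDPAD libraries of those times held 0.0597 to 194 FPM. Mki67, a marker of dividing cells, had 17.3, 17.1, 17.9 and 15.9 FPM in the LIDPAD libraries, against 2.32, 2.07 and 45.5 FPM in the control libraries. The Y-linked gene Uty had 34.6, 33.5, 32.2 and 31.4 FPM in the LIDPAD libraries, against 34.0, 34.7 and 17.5 FPM in the control libraries. Control library 3 was thus low in Hsd3b5 like the LIDPAD libraries, above all other libraries of this time in H19 and Mki67, and below them in Uty.

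Genes of the cholesterol synthesis pathway fell. Of 24 listed genes, all of them tested, 20 were called lower and 0 higher, with a median log2 difference of -1.31 against 0.01 over all tested genes and a background of 3.34% called lower. Every LIDPAD library lay below every control library, control library 3 included, for 21 of the 24, against 10.7% of all tested genes. The summed level of the list was 1397 to 1638 FPM in the LIDPAD libraries and 2725 to 3539 FPM in the control libraries. Without control library 3 the calls were 23 lower and 0 higher (median -1.42), and leaving out any other single library gave 14 to 17 lower. Sqle, squalene epoxidase (chromosome 15, 59315077 to 59331192, plus strand, GRCm38), had 5.61, 5.67, 5.48 and 11.7 FPM in the LIDPAD libraries, against 77.7, 66.5 and 74.5 FPM in the control libraries. Its 7.12 ± 3.08 FPM (SD, n = 4) on LIDPAD, against 72.9 ± 5.73 FPM (SD, n = 3) on control diet, was the largest fall among the genes named by rule and called (log2 difference -3.34 ± 0.25, adjusted p = 0.000994). LIDPAD library 4 was the highest of its group and still far below the lowest control library.

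Successive enzymes of the pathway showed the same separation of the diets. Mvd, mevalonate diphosphate decarboxylase, had 3.36, 2.34, 3.99 and 2.82 FPM on LIDPAD, against 20.9, 12.6 and 14.0 FPM on control diet (log2 difference -2.16 ± 0.22, adjusted p = 0.00311). Idi1, the isomerase that interconverts the isoprene building blocks, had 17.1, 27.6, 22.1 and 35.2 FPM on LIDPAD, against 151, 187 and 116 FPM on control diet (-2.57 ± 0.25, adjusted p = 0.00284). For both enzymes the groups did not overlap, and for Idi1 control library 3 was the lowest control. Cyp51, lanosterol demethylase, had 23.7, 26.6, 30.4 and 33.5 FPM in the LIDPAD libraries, against 143, 150 and 133 FPM in the control libraries (-2.31 ± 0.13, adjusted p = 0.000363). Hsd17b7, the 3-ketosteroid reductase of the late pathway, had 19.4, 18.8, 19.8 and 19.6 FPM on LIDPAD, against 51.8, 47.2 and 45.4 FPM on control diet (-1.29 ± 0.08, adjusted p = 0.000641). Both genes had a narrow spread within each diet and no overlap between diets.

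The 4 list members not called lower with 7 libraries included Fdps and Sc5d, picked out after their values were seen. Fdps, farnesyl diphosphate synthase, had 3.39, 4.98, 6.52 and 7.06 FPM on LIDPAD, against 23.8, 15.3 and 7.59 FPM on control diet (log2 difference -1.33 ± 0.38, adjusted p = 0.0624), and Sc5d overlapped between diets through control library 3. Both were called lower without that library.

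**Figure D2:**
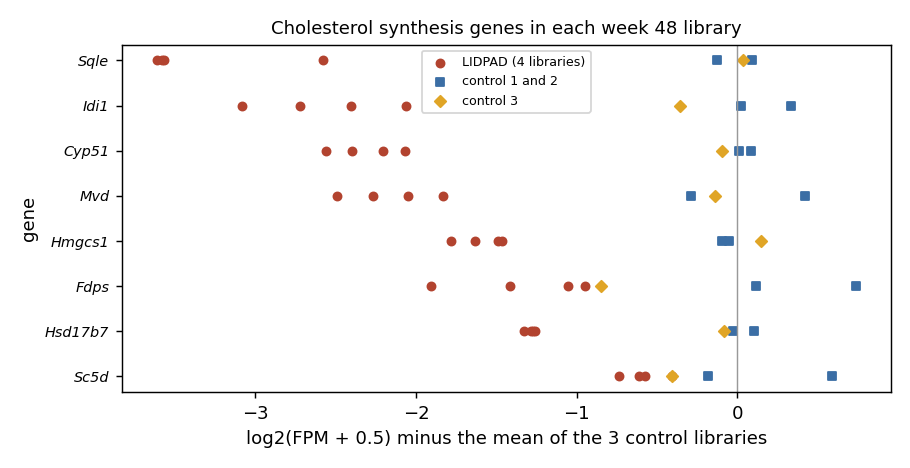
The 8 genes of the cholesterol synthesis list named in the text, in each library at 48 weeks, as log2(FPM + 0.5) minus the mean of the 3 control libraries. Circles are LIDPAD libraries, squares control libraries 1 and 2 and diamonds control library 3. For 7 genes all 4 circles lie left of all control symbols, and for Sc5d 1 circle lies under the diamond.

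Promoter sequences of 4 of these enzymes and of an MHC class II gene described further on are shown because a short motif was common in both lists, which moved in opposite directions. Sequences are 150 bases before the RefSeq gene start, on the gene's strand, from assembly GRCm38.p6, and capitals mark GATTGG or its reverse complement CCAATC, the inverted and direct forms of the CCAAT box bound by NF-Y. Idi1 lies at chr13:8885456-8885605 on the plus strand, Mvd at chr8:122443423-122443572 on the minus strand, Cyp51 at chr5:4104698-4104847 on the minus strand, Hsd17b7 at chr1:169969206-169969355 on the minus strand and H2-DMb2 at chr17:34145099-34145248 on the plus strand.
Idi1: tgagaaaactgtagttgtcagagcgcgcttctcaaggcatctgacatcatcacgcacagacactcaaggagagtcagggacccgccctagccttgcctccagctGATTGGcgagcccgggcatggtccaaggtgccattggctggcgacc
Mvd: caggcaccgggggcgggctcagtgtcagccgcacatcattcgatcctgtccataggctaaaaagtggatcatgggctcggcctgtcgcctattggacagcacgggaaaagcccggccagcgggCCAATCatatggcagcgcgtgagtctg
Cyp51: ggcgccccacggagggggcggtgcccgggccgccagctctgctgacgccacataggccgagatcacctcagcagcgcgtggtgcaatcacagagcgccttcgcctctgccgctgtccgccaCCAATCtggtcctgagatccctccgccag
Hsd17b7: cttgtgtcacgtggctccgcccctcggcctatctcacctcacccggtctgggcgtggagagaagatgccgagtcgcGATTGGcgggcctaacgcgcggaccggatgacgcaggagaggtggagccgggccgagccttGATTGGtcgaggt
H2-DMb2: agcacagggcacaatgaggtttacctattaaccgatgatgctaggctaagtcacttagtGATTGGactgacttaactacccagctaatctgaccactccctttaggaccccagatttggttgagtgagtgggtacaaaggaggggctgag
In the printed bases the motif began 46 bases before the start in Idi1, 27 in Mvd, 29 in Cyp51, 74 and 13 in Hsd17b7 and 91 in H2-DMb2. Within 250 bases before the start, on either strand, GATTGG was found in 4486 of the 27025 genes of the promoter table (16.6%). A gene with several promoters was counted once, if any of them held the motif. It was found in 11 of the 16 cholesterol synthesis genes the table holds (68.8%). Of the 9 members of the MHC class II presentation list that it holds, 7 had the motif (77.8%). The sterol element TCACNCCAC, searched on both strands over the same bases, was found in 331 of all genes of that table (1.22%) and in 1 of the 16 cholesterol synthesis genes (6.25%), Hmgcs1. It was also found in 1 of the 9 members of the MHC class II presentation list (11.1%), Cd80, which is not itself a class II gene. These matches describe letters, and binding was not measured.

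Fatty acid synthesis did not follow cholesterol synthesis in the calls. Of its 18 genes 0 were called higher and 0 lower, with a median log2 difference of -0.41 at the authors' scaling and -0.12 after rescaling. At an unadjusted p under 0.05 limma gave 3 lower and 0 higher, edgeR called 0 and DESeq2 called 3 lower. Without control library 3 there were 2 higher and 3 lower. Fasn, fatty acid synthase, had 1249, 1183, 2467 and 1266 FPM in the LIDPAD libraries, against 4222, 782 and 2316 FPM in the control libraries (log2 difference -0.43 ± 0.54, adjusted p = 0.674). Control libraries 1 and 2 were the highest and the lowest of all 7, so the spread between controls was wider than the difference between diets.

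Genes of fat storage and fat oxidation moved upwards in part. Of 21 lipid droplet and uptake genes 20 were tested, 6 were called higher and 0 lower (median log2 difference 0.51, background 6.54%). Leaving out control library 3 made that 14 higher and 2 lower, and leaving out any other single library 1 to 2 higher. Plin4, a perilipin that coats lipid droplets (chromosome 17, 56100591 to 56109803, minus strand), had 113, 116, 130 and 102 FPM in the LIDPAD libraries, against 6.27, 13.9 and 18.7 FPM in the control libraries (log2 difference 3.23 ± 0.31, adjusted p = 0.00273). The groups did not overlap. Cidec, which fuses lipid droplets, had 50.5, 44.4, 45.3 and 38.8 FPM on LIDPAD, against 2.19, 1.34 and 25.3 FPM on control diet (3.16 ± 0.79, adjusted p = 0.0439). Fitm2, needed for droplet formation, had 45.0, 45.7, 43.9 and 48.3 FPM on LIDPAD, against 30.2, 35.0 and 33.6 FPM on control diet (0.47 ± 0.09, adjusted p = 0.0190). Cidec was far higher in control library 3 than in the other controls, whereas Fitm2 was even across each group. The fatty acid transporter gene Cd36 had 287, 287, 263 and 275 FPM in the LIDPAD libraries, against 43.0, 46.9 and 285 FPM in the control libraries (1.73 ± 0.59, adjusted p = 0.101). It overlapped through control library 3 alone and was called higher without it (2.62, adjusted p = 3.41e-08).

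Of 25 genes of fatty acid oxidation and PPAR alpha targets, all tested, 8 were called higher and 1 lower (median 0.48). With control library 3 left out, 13 were higher and 2 lower, and with any other library left out 0 to 4 were higher. Acaa1b, a peroxisomal thiolase, had 626, 776, 805 and 695 FPM in the LIDPAD libraries, against 380, 299.7 and 452 FPM in the control libraries (log2 difference 0.96 ± 0.16, adjusted p = 0.0169). Pex11a, a peroxisome division factor, had 42.0, 46.1, 49.1 and 42.3 FPM on LIDPAD, against 26.5, 27.3 and 30.3 FPM on control diet (0.67 ± 0.09, adjusted p = 0.0110). Both were higher in every LIDPAD library than in any control. The member that fell was Fgf21, a hepatokine, with 6.95, 2.52, 5.36 and 2.76 FPM on LIDPAD, against 16.8, 10.6 and 25.4 FPM on control diet (-1.91 ± 0.39, adjusted p = 0.0241). Pparg, a regulator of fat storage that is low in healthy liver, had 22.3, 22.5, 20.8 and 18.9 FPM on LIDPAD, against 7.37, 7.22 and 12.5 FPM on control diet (1.23 ± 0.19, adjusted p = 0.0135). Cfd, the adipocyte protease adipsin, had 4.53, 5.20, 7.91 and 4.56 FPM on LIDPAD, against 0.16, 0.59 and 0 FPM on control diet (3.05 ± 0.30, adjusted p = 0.00292). Cfd was tested through the LIDPAD libraries alone. Of 12 adipocyte markers 6 were tested and 3 were called higher, or 4 without control library 3, and the defining fat cell gene Adipoq did not exceed 0.0994 FPM in any LIDPAD library or 0.0750 FPM in any control library.

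Among genes of the portal side of the lobule the calls were falls. Of 14 periportal genes 7 were called lower and 0 higher (median -0.78), and 10 had every LIDPAD library below every control library. Over all tested genes 3.34% were called lower and 10.7% lay below every control library. Without control library 3 there were 11 lower and 1 higher, and without any other single library 4 to 6 lower. Cyp2f2, a periportal P450 (chromosome 7, 27119909 to 27133660, plus strand), had 37.2, 43.3, 35.6 and 34.6 FPM in the LIDPAD libraries, against 192, 224 and 251 FPM in the control libraries (log2 difference -2.54 ± 0.12, adjusted p = 0.000225). Etnppl, which breaks down phosphoethanolamine, had 14.7, 21.5, 16.6 and 14.2 FPM on LIDPAD, against 72.7, 85.2 and 86.0 FPM on control diet (-2.26 ± 0.15, adjusted p = 0.000641). In both genes control library 3 was the highest control. Hal, histidine ammonia-lyase, had 39.0, 63.8, 45.5 and 56.2 FPM on LIDPAD, against 163, 209 and 138 FPM on control diet (-1.73 ± 0.20, adjusted p = 0.00584). Of 17 pericentral and Wnt responsive genes 1 was called higher, the ammonium transporter gene Rhbg, and 0 lower. That is near the 6.54% called higher over all tested genes. Rhbg was under 1 FPM in every control library and was tested through the LIDPAD libraries alone. The median of the pericentral list was 0.15 with all libraries and -0.24 without control library 3, when 4 were higher and 8 lower. Over all tested genes that fit called 22.3% higher and 15.4% lower, so the 4 higher were near the background.

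Some genes of amino acid breakdown, of the secreted plasma proteins and of the folding machinery were called lower and none higher with 7 libraries. Of 17 urea cycle and amino acid genes 7 were called lower and 0 higher (median -0.65), and 14 lower and 2 higher without control library 3 or 2 to 6 lower without another library. Asl, argininosuccinate lyase of the urea cycle, had 86.0, 104, 104 and 105 FPM in the LIDPAD libraries, against 166, 161 and 176 FPM in the control libraries (log2 difference -0.75 ± 0.10, adjusted p = 0.00961). Tat, tyrosine aminotransferase, listed with gluconeogenesis and glucose handling, had 170, 169, 155 and 145 FPM on LIDPAD, against 384, 380 and 333 FPM on control diet (-1.19 ± 0.10, adjusted p = 0.00154). No library of either gene crossed into the range of the other diet. Of the 17 genes on the list of Tat 2 were called lower and 0 higher (median -0.22), or 6 lower and 0 higher without control library 3. After rescaling 1 was called lower and 2 higher (median 0.07). Of 22 plasma protein genes 3 were called lower, 0 higher (median -0.74), and 19 lower without control library 3 or 0 to 1 without another library. Their summed level was 59732 to 70066 FPM in the LIDPAD libraries and 96864 to 140960 FPM in the control libraries. The size of the fall depended on the scaling, with a median of -0.45 after rescaling and -0.15 by quantile normalization, and 2 called lower in each. Serpina3k, a secreted serpin, had 1777, 1149, 1262 and 1555 FPM on LIDPAD, against 6239, 6609 and 2969 FPM on control diet (-1.81 ± 0.32, adjusted p = 0.0180). Control library 3 lay between the diets for Serpina3k. Of 18 chaperone and unfolded protein response genes 5 were called lower and 0 higher (median -0.45), and 17 lower without control library 3 or 0 to 3 without another library. Hspa5, the chaperone BiP, had 445, 407, 421 and 452 FPM on LIDPAD, against 770, 950 and 644 FPM on control diet (-0.85 ± 0.14, adjusted p = 0.0166).

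Of 19 integrated stress response genes 4 were called lower and 0 higher (median -0.38), with 8 lower and 2 higher without control library 3 and 1 to 5 lower without any other single library. Atf4, its central transcription factor, had 41.8, 34.9, 39.6 and 38.0 FPM in the LIDPAD libraries, against 83.1, 67.7 and 62.3 FPM in the control libraries (log2 difference -0.87 ± 0.12, adjusted p = 0.00999). Mthfd2, a mitochondrial folate enzyme, had 1.27, 1.03, 1.63 and 1.10 FPM on LIDPAD, against 4.27, 2.98 and 5.09 FPM on control diet (-1.38 ± 0.21, adjusted p = 0.0135). The groups were separate for both. Of 21 hepatokine genes tested 2 were called higher and 6 lower, with a median of -0.13 that became 0.15 after rescaling, and 5 of 20 higher and 9 lower without control library 3. Over all tested genes 6.54% were called higher and 3.34% lower, or 22.3% and 15.4% without control library 3. The counts of higher hepatokine genes were near those shares. Enho, which encodes adropin, had 0.66, 0.56, 0.61 and 0.65 FPM on LIDPAD, against 6.87, 10.9 and 2.15 FPM on control diet (-2.44 ± 0.43, adjusted p = 0.0186). Enho was tested through the control libraries alone. Hgf, the hepatocyte growth factor made by stellate cells, had 50.2, 39.1, 40.8 and 44.2 FPM on LIDPAD, against 26.7, 29.0 and 29.2 FPM on control diet (0.61 ± 0.10, adjusted p = 0.0172). Slc22a7, an organic anion transporter of hepatocytes (chromosome 17, 46432183 to 46438457, minus strand), had 1.83, 2.07, 1.81 and 1.83 FPM on LIDPAD, against 17.5, 14.7 and 13.4 FPM on control diet (-2.71 ± 0.13, adjusted p = 0.000225). Slc22a7 and Cyp2f2 shared the smallest adjusted p of the genes named here, with groups far apart.

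Several pathways of the hepatocyte gave few calls with 7 libraries and more without control library 3. The share called also rose over all tested genes, from 6.54% to 22.3% higher and from 3.34% to 15.4% lower. Among 21 bile acid genes tested 2 were called higher and 2 lower, with a median of -0.24 that became 0.05 after rescaling, and 5 were higher and 11 lower without control library 3. Abcg8, a sterol exporter subunit, had 81.3, 85.0, 85.6 and 82.6 FPM in the LIDPAD libraries, against 57.1, 49.8 and 59.8 FPM in the control libraries (log2 difference 0.59 ± 0.09, adjusted p = 0.0124). Abcb11, the bile salt export pump, had 415, 443, 387 and 441 FPM on LIDPAD, against 734, 574 and 590.1 FPM on control diet (-0.58 ± 0.12, adjusted p = 0.0271). The groups were separate for both pumps, but the Abcb11 call depended on the scaling, with -0.29 after rescaling (adjusted p = 0.0951) and -0.29 by quantile normalization (adjusted p = 0.294). Of 18 clock genes 1 was called higher and 4 lower, among them the repressor gene Nfil3 (-1.26 ± 0.15, adjusted p = 0.00760), or 2 higher and 5 lower without control library 3, and collection times are not known. Gstp1, a glutathione transferase, was the 1 of 21 glutathione genes called, with 236, 263, 293 and 277 FPM on LIDPAD, against 722, 841 and 639 FPM on control diet (-1.45 ± 0.13, adjusted p = 0.00209). The median of that list was -0.13 with 7 libraries and 0.29 without control library 3, when 8 of 20 were higher and 3 lower. Of 21 male-biased genes 4 were called lower and 0 higher, and 17 lower without control library 3. Elovl3, a male-biased fatty acid elongase, had 6.03, 5.05, 7.93 and 7.06 FPM on LIDPAD, against 131, 27.2 and 6.82 FPM on control diet (-2.11 ± 0.81, adjusted p = 0.137). Of 11 female-biased genes tested 2 were called higher, and 9 of 10 without control library 3.

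**Figure D3:**
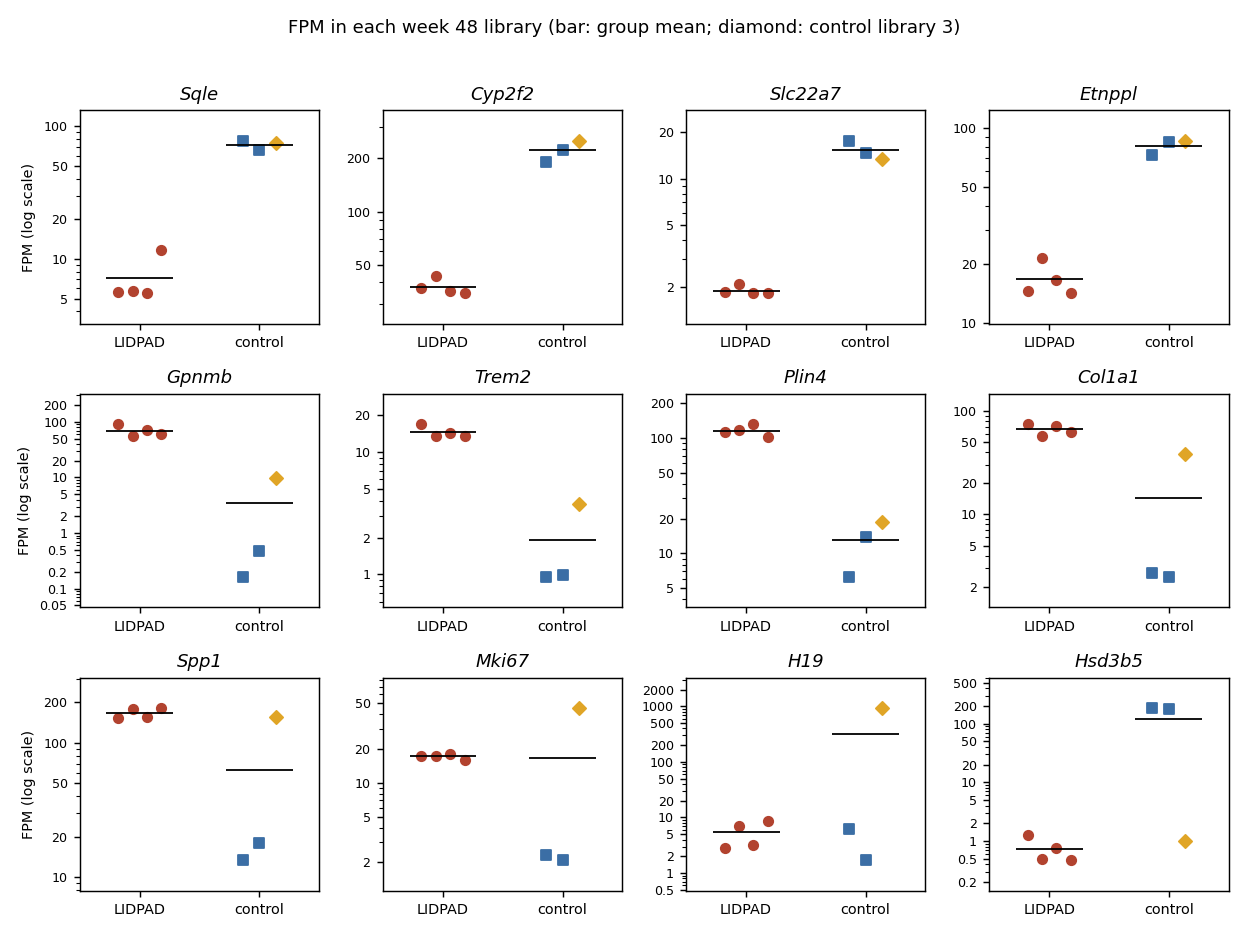
FPM of 12 genes in each library at 48 weeks, on log axes. Circles are LIDPAD libraries, squares control libraries 1 and 2, diamonds control library 3, and bars group means. Sqle, Cyp2f2, Slc22a7 and Etnppl are lower and Gpnmb, Trem2, Plin4 and Col1a1 higher in every LIDPAD library than in any control, while the control diamond reaches or passes the LIDPAD level in Spp1, Mki67, H19 and Hsd3b5.

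Macrophage genes were among the largest rises. Of 22 markers of lipid-associated and recruited macrophages, all tested, 14 were called higher and 0 lower, with a median log2 difference of 2.01 against 0.01 over all tested genes. In the fit without control library 3, 20 of 21 were higher and 1 lower (median 2.98). Their summed level was 1168 to 1384 FPM in the LIDPAD libraries, against 264 to 907 FPM in the control libraries, where control library 3 was the highest. The call count was 2 to 9 when any other single library was left out, and edgeR called 8 with all 7. Gpnmb, a glycoprotein of lipid-laden macrophages (chromosome 6, 49036546 to 49070929, plus strand), had 90.0, 56.0, 72.1 and 61.7 FPM in the LIDPAD libraries, against 0.16, 0.48 and 9.92 FPM in the control libraries. Its mean of 70.0 ± 15.0 FPM (SD, n = 4) on LIDPAD, against 3.52 ± 5.55 FPM (SD, n = 3) on control diet, was the largest rise among the genes named by rule and called (log2 difference 5.20 ± 0.83, adjusted p = 0.0151). Mmp12, the macrophage elastase, had 27.8 to 37.2 FPM on LIDPAD (mean 30.8 ± 4.41, SD, n = 4), against 0, 2.09 and 7.32 FPM on control diet (3.84 ± 0.77, adjusted p = 0.0231). Trem2, a lipid receptor of these cells, had 16.8, 13.5, 14.4 and 13.6 FPM on LIDPAD, against 0.96, 0.99 and 3.80 FPM on control diet (2.83 ± 0.36, adjusted p = 0.00844). In all 3 genes control library 3 was the highest control and still below each LIDPAD library. Atp6v0d2, a proton pump subunit gene of lysosomes, was also called higher (1.78 ± 0.19, adjusted p = 0.00390).

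The osteopontin gene Spp1, also on that list, had 154, 178, 155 and 182 FPM in the LIDPAD libraries, against 13.3, 18.0 and 157 FPM in the control libraries (log2 difference 2.29 ± 0.73, adjusted p = 0.0876). Control library 3 lay within the LIDPAD range, and without it Spp1 was called higher (3.39, adjusted p = 6.08e-08). Resident Kupffer cell genes were mixed. Of 16 tested, 6 were called higher and 1 lower (median 0.70), with 11 higher and 3 lower without control library 3 and 0 to 2 higher without any other single library. C1qc, a complement subunit, had 72.2, 63.8, 67.6 and 65.9 FPM on LIDPAD, against 15.9, 19.5 and 41.5 FPM on control diet (1.50 ± 0.28, adjusted p = 0.0207). The scavenger receptor gene Marco was the member called lower, with 1.28, 1.26, 0.62 and 0.81 FPM on LIDPAD, against 10.6, 33.7 and 3.55 FPM on control diet (-2.98 ± 0.62, adjusted p = 0.0252). C1qc and Marco, both macrophage genes, separated the diets in opposite directions. In whole liver, fewer cells of a type and less RNA per cell cannot be told apart, and this holds for every cell type list here. Among 25 lysosome genes 12 were called higher and 0 lower (median 0.43), with 18 higher and 3 lower without control library 3 and 1 to 4 higher without any other single library. Of the 25, 1 was under 1 FPM in every control library, and it was called.

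Some antigen presentation and lymphocyte genes were called higher as well. Of 13 MHC class II presentation genes 12 were tested, 9 were called higher and 0 lower (median 1.65), and 11 higher without control library 3 or 0 to 4 without another library. Their summed level was 653 to 703 FPM in the LIDPAD libraries, against 81.7 to 436 FPM in the control libraries. H2-Ab1, a class II beta chain, had 77.1, 68.5, 78.3 and 79.7 FPM on LIDPAD, against 7.57, 20.9 and 40.6 FPM on control diet (log2 difference 1.99 ± 0.46, adjusted p = 0.0340). H2-DMb2, which helps load peptides and whose promoter is shown above, had 3.49, 4.52, 4.12 and 4.04 FPM on LIDPAD, against 1.09, 1.47 and 2.39 FPM on control diet (1.12 ± 0.22, adjusted p = 0.0216). The 3 control libraries differed from each other more than the 4 LIDPAD libraries did, and none reached them. Of 20 MHC class I and immunoproteasome genes 0 were called in either direction with limma or edgeR, 4 were higher and 1 lower at an unadjusted p under 0.05, and DESeq2 called 1 in each direction. Leaving out control library 3 gave 5 higher and 4 lower, near the shares over all tested genes in that fit (22.3% higher and 15.4% lower). Of 30 interferon response genes 1, the GTPase gene Gbp2, was called higher (1.13 ± 0.23, adjusted p = 0.0255). That is under the 6.54% called higher over all tested genes. Without control library 3, 11 were higher and 1 lower.

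Of 34 T and NK cell markers 15 passed the filter on low values, and 8 of these were called higher and 0 lower. Of the 15, 5 were under 1 FPM in every control library, and 4 of those 5 were called. The fit without control library 3 had 12 of 14 higher and 1 lower, and without any other single library 0 to 3 higher. Themis, a T cell signalling gene (chromosome 10, 28668360 to 28883818, plus strand), had 36.7, 28.1, 31.2 and 26.1 FPM in the LIDPAD libraries, against 0.52, 1.64 and 10.8 FPM in the control libraries (log2 difference 3.40 ± 0.69, adjusted p = 0.0235). The whole list summed to 69.3 to 76.1 FPM in the LIDPAD libraries, so Themis made up a large part of it. Which cells the Themis RNA came from was not tested. Cd8a, the co-receptor of cytotoxic T cells, had 1.38, 1.05, 1.54 and 1.38 FPM on LIDPAD, against 0.48, 0.61 and 0.29 FPM on control diet (0.94 ± 0.20, adjusted p = 0.0278). Themis and Cd8a were both above every control in every LIDPAD library, and for Cd8a control library 3 was the lowest control. Cd8a was tested through the LIDPAD libraries alone. The Cd8a call was lost by quantile normalization (0.54, adjusted p = 0.204). Of 26 B and plasma cell markers 22 were tested and 7 were called higher, with 17 higher and 1 lower without control library 3 and 0 to 5 higher without any other single library. Of the 22, 4 were under 1 FPM in every control library, and 1 of those 4 was called. Ighm, the IgM heavy chain constant region, had 83.2, 242, 274 and 126 FPM on LIDPAD, against 41.5, 26.0 and 21.1 FPM on control diet (2.50 ± 0.43, adjusted p = 0.0167). Jchain, which joins IgM and IgA into polymers, had 9.58, 26.5, 22.0 and 13.1 FPM on LIDPAD, against 4.85, 2.89 and 5.03 FPM on control diet (1.87 ± 0.35, adjusted p = 0.0203). LIDPAD libraries 2 and 3 were the highest in both genes, and all 4 lay above every control. Reads of immunoglobulin variable segments such as Igkv3-2 (3.05 ± 0.68, adjusted p = 0.0308) can be shared between near-identical copies, and their values are uncertain. Of 27 chemokine and receptor genes 16 were tested, and the 4 called higher included Ccl5, Ccl6 and Cxcr4, or 13 higher without control library 3. Of the 16, 2 were under 1 FPM in every control library, and 1 of those 2 was called.

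Matrix genes and stellate cell markers were called higher in part. Of 31 extracellular matrix genes, all tested, 15 were called higher and 1 lower (median 1.24). The fit without control library 3 gave 27 higher and 3 lower (median 1.63), and with any other single library left out 2 to 3 were higher. EdgeR called 5 higher and 1 lower with all 7. Col1a1, the main chain of type I collagen (chromosome 11, 94936224 to 94953042, plus strand), had 74.2, 57.5, 71.7 and 62.7 FPM in the LIDPAD libraries, against 2.74, 2.49 and 38.2 FPM in the control libraries (log2 difference 3.21 ± 0.80, adjusted p = 0.0445). Col3a1, type III collagen, had 250.3, 197, 198 and 220 FPM on LIDPAD, against 26.5, 20.4 and 137 FPM on control diet (2.34 ± 0.57, adjusted p = 0.0408). For both collagens control library 3 was nearer the LIDPAD libraries than the other controls. Dcn, the proteoglycan decorin, had 288, 255, 281 and 285 FPM on LIDPAD, against 131, 124 and 135 FPM on control diet (1.09 ± 0.09, adjusted p = 0.00113). Control library 3 lay with the other controls for Dcn, and Dcn and the matrix protein gene Efemp1 were the 2 matrix genes called whichever library was left out. Col5a3, a minor fibrillar collagen, went the other way, with 21.2 ± 1.89 FPM (SD, n = 4) on LIDPAD, against 44.1 ± 8.46 FPM (SD, n = 3) on control diet and no overlap (-1.02 ± 0.14, adjusted p = 0.0111).

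Of 26 remodelling and crosslinking genes 22 were tested, 8 were called higher and 0 lower (median 1.31), and 18 higher and 1 lower without control library 3 or 0 to 1 higher without another library. Timp1, an inhibitor of matrix proteases, had 2.36, 2.23, 2.00 and 2.34 FPM in the LIDPAD libraries, against 0.24, 0 and 0.85 FPM in the control libraries (log2 difference 1.78 ± 0.32, adjusted p = 0.0186), and it was tested through the LIDPAD libraries alone. Of 22 stellate cell and myofibroblast genes 19 were tested, 10 were called higher and 0 lower (median 0.80), with 15 higher and 1 lower without control library 3 and 1 to 2 higher without any other single library. Of the 19, 1 was under 1 FPM in every control library, and it was called. The summed level of the stellate cell list was 492 to 552 FPM in the LIDPAD libraries, against 289 to 379 FPM in the control libraries. Lrat, which stores retinol in quiescent stellate cells, had 67.3, 55.1, 60.0 and 54.5 FPM on LIDPAD, against 31.1, 21.2 and 27.5 FPM on control diet (1.15 ± 0.14, adjusted p = 0.00760). The marker of quiescent stellate cells was therefore higher beside collagen, with no overlap. Of 8 mesothelial markers 4 were tested, and Wt1 (1.41 ± 0.24, adjusted p = 0.0172) and Gpm6a (1.09 ± 0.22, adjusted p = 0.0227) were called higher, or 3 markers without control library 3. Of 22 sinusoidal endothelial genes 1 was called higher, Vwf, the von Willebrand factor gene (1.14 ± 0.30, adjusted p = 0.0494). That is under the 6.54% called higher over all tested genes. Without control library 3 there were 9 higher and 3 lower, against shares of 22.3% and 15.4% over all tested genes.

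Growth and tumour-associated genes gave few or no calls with all 7 libraries. Of 27 cell cycle genes tested 0 were called by limma, edgeR or DESeq2 with 7 libraries and 0 reached an unadjusted p under 0.05 in limma, and 20 of 26 were called higher without control library 3. The summed level of the list was 164 to 194 FPM in the LIDPAD libraries, against 73.6, 71.7 and 349 FPM in control libraries 1, 2 and 3. Top2a, a topoisomerase of dividing cells, had 12.7, 10.6, 10.2 and 9.75 FPM on LIDPAD, against 0.96, 1.55 and 28.8 FPM on control diet (log2 difference 1.34 ± 0.91, adjusted p = 0.398). LIDPAD livers lay above the 2 low controls and below control library 3. Of 17 ductular and progenitor genes tested 2 were called higher, Cd24a (1.82 ± 0.46, adjusted p = 0.0454) and Anxa5 (1.54 ± 0.38, adjusted p = 0.0421), and 15 of 16 without control library 3. Of 19 oncofetal and liver tumour genes tested 1 was called higher, the pyruvate kinase gene Pkm (1.19 ± 0.26, adjusted p = 0.0305). That is under the 6.54% called higher over all tested genes. Without control library 3, 12 of 17 were called higher, against 22.3% over all tested genes. Ubd, an inducible ubiquitin-like protein gene, had 19.8, 25.7, 18.6 and 22.0 FPM on LIDPAD, against 0.45, 0.77 and 68.4 FPM on control diet (2.33 ± 1.32, adjusted p = 0.305). The sign of the Ubd difference depended on the tool, as given in the closing section.

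**Figure D4:**
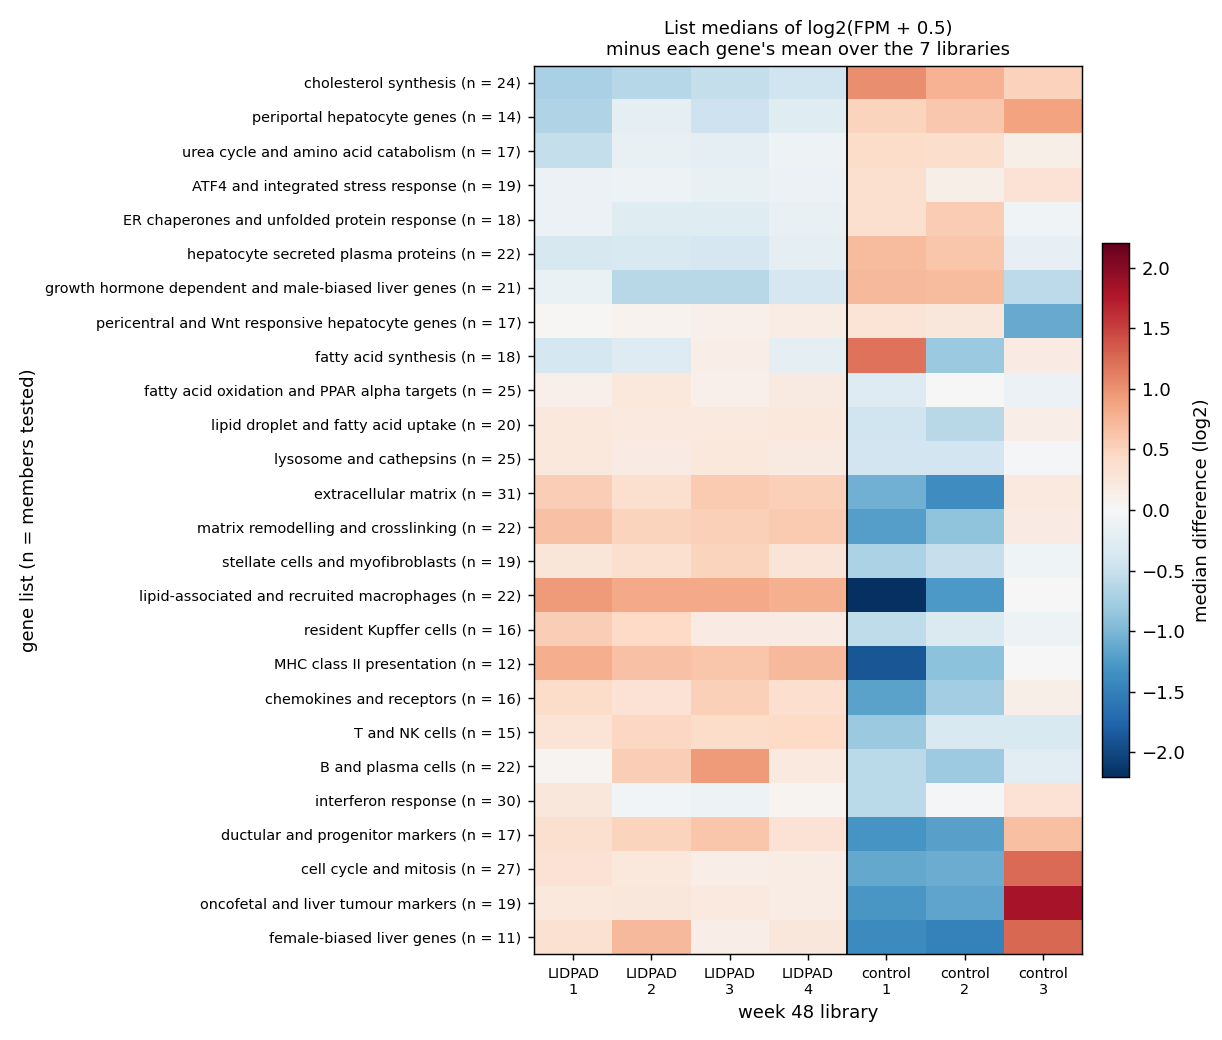
Median over each gene list of log2(FPM + 0.5) minus each gene's mean over the 7 libraries, by library at 48 weeks, with red above and blue below that mean. LIDPAD columns stand left of the control columns. Cholesterol synthesis and periportal genes are below the mean in all LIDPAD columns and above it in all controls, whereas control library 3 is the control nearest to the LIDPAD libraries in matrix genes and highest in the cell cycle, oncofetal and female-biased lists.

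Genes outside the lists were among the largest changes. Adgrv1, a very large adhesion receptor, had 23.7, 26.0, 30.7 and 21.1 FPM in the LIDPAD libraries, against 2.54, 2.00 and 3.40 FPM in the control libraries (log2 difference 3.05 ± 0.18, adjusted p = 0.000576). Its level was separate between the diets. Among the falls, the glutamate receptor gene Grm8 had 0.67, 0.34, 0.20 and 0.12 FPM on LIDPAD, against 7.65, 7.09 and 4.42 FPM on control diet (-3.06 ± 0.28, adjusted p = 0.00225). Tiam2, an exchange factor for the GTPase Rac, had 2.82, 3.51, 2.90 and 3.51 FPM on LIDPAD, against 17.2, 14.1 and 27.5 FPM on control diet (-2.40 ± 0.22, adjusted p = 0.00221). Capn8, a calpain protease, had 0.14, 0.06, 0.15 and 0.08 FPM on LIDPAD, against 1.86, 2.16 and 2.85 FPM on control diet (-2.19 ± 0.20, adjusted p = 0.00232). These 3 genes were low in all LIDPAD libraries. They and Adgrv1 were picked from called genes with separate groups, so their separation was fixed by the choice. Grm8 and Capn8 were tested through the control libraries alone. In each of the 7 fits that left out 1 library, the same 57 genes were called higher and the same 61 lower, and 14 of those 61 were cholesterol synthesis genes.

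The signed diet difference (LIDPAD minus control) at 48 weeks was also set against that at earlier times, in a fit of all libraries of both times. Against 32 weeks, 0 genes were called more positive (0% of 15609 tested) and 0 more negative (0%) by limma, with 1410 genes at an unadjusted p under 0.05 (9.03%). Against 16 weeks, 1 gene was called more positive (0.00658% of 15198 tested), Gm17167, and 2 more negative (0.0132%), Cyp2f2 and G0s2, with 1571 at an unadjusted p under 0.05 (10.3%). Cyp2f2 had 121, 164 and 163 FPM in LIDPAD libraries at 16 weeks, against 217, 181 and 214 FPM in control libraries. At 32 weeks it ran from 59.8 to 192 FPM in 5 LIDPAD libraries, median 118, against 231 to 319 FPM in 4 control libraries, and at 48 weeks from 34.6 to 43.3 FPM on LIDPAD, against 192 to 251 FPM on control diet. The groups were separate at all 3 times, and LIDPAD libraries were lowest at 48 weeks. The difference was -0.46 at 16 weeks and -2.54 at 48 weeks, a change of -2.08 ± 0.19 (adjusted p = 0.000983). The lipolysis inhibitor gene G0s2 had 68.0, 84.9 and 80.4 FPM in LIDPAD libraries at 16 weeks, against 22.8, 15.0 and 20.3 FPM in control libraries. At 32 weeks it ran from 7.99 to 43.6 FPM in 5 LIDPAD libraries, median 35.5, against 16.2 to 94.6 FPM in 4 control libraries. At 48 weeks it had 33.4, 25.7, 30.8 and 29.9 FPM on LIDPAD, against 20.0, 26.9 and 30.0 FPM on control diet. G0s2 separated the diets at 16 weeks and overlapped at 32 and 48 weeks, with differences of 1.99, -1.22 and 0.23. The change between 16 and 48 weeks was -1.76 ± 0.23 (adjusted p = 0.0328), and that between 32 and 48 weeks was 1.45 ± 0.78 (adjusted p = 0.577). The weeks were deposited in tables scaled separately. A factor common to a whole table largely cancels in the difference between diets within a week, but not in levels across weeks. The size factors of the single columns do not cancel, and rescaling changed the calls against 16 weeks, as given in the closing section.

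**Figure D5:**
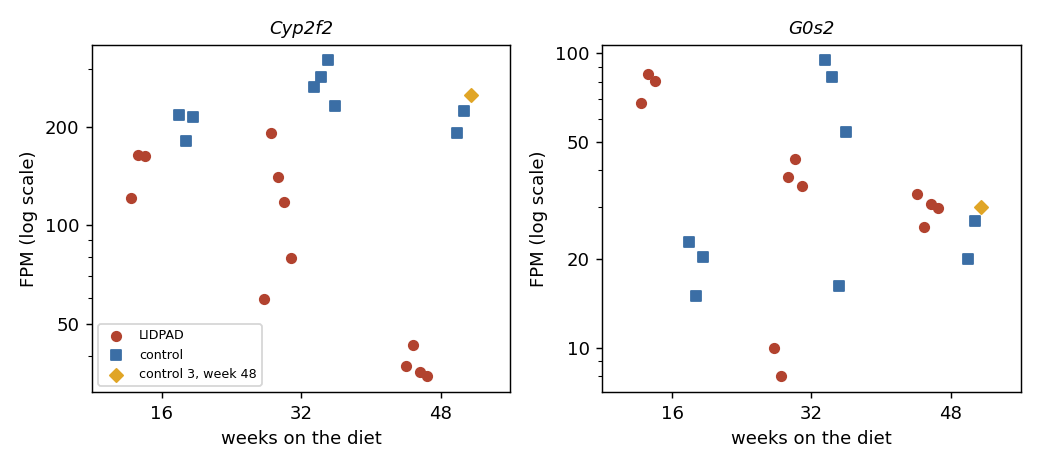
FPM of Cyp2f2 and G0s2 in each library after 16, 32 and 48 weeks, on log axes, with LIDPAD circles left of control squares at each time and control library 3 of week 48 as a diamond. The Cyp2f2 groups are apart at each time and furthest apart at 48 weeks (LIDPAD 34.6 to 43.3 FPM, control 192 to 251 FPM), and the G0s2 groups are apart at 16 weeks and overlap at 32 and 48 weeks.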

How the data were processed

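Per the labels' protocols, total liver RNA was made into Illumina libraries. The values are a signal deposited as FPM, which are counts per gene scaled by a size factor for every column and given per 1000000 in 1 table per feeding time. Per the submitters' processing notes, reads were handled with HISAT2, featureCounts and DESeq2 on GRCm38. Versions, annotation and strand setting are not given in the sources used here, so reads of overlapping or antisense genes cannot be told apart. Values were whole multiples of the worth of 1 read, and 100% of low values came out whole within 0.02 reads. That gave depth and allowed count tests.

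Columns of a block of 4 were averaged. The main test was limma 3.58.1 (R 4.3.3) on log2(FPM + 0.5) with a mean-variance trend, for genes with at least 1 FPM in 3 libraries, called at an adjusted p under 0.05. Alternatives were other pseudocounts, filters, scalings and weights, a replicate block, edgeR 4.0.16 (quasi-likelihood) and DESeq2 1.42.0 on the recovered reads, a joint fit of all weeks, each column as a sample, and leaving out each library. Procedures were tested on simulated data. Named genes are the 15 largest rises and 15 largest falls with separate groups, the 2 smallest p-values per list, members called against their list, a set of index genes, and genes called between weeks. Some genes that this rule names are not reported here, and counts over lists include them. A few others are marked in the text as chosen after their values were seen. The members and the gene lists were chosen with earlier results of these data known. Positions came from GENCODE annotation of GRCm38 and promoters from RefSeq (GRCm38.p6). Tables used pandas 2.3.3 and numpy 2.4.6, and figures matplotlib 3.10.9, under Python 3.11.15.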

Additional observations from a re-analysis of the deposited data

Results flagged for a closer look

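Among the 80 genes examined, 4 had a LIDPAD library whose gap to the nearest other library took up more of the group's range than Dixon's 95% critical value for 4 samples allows, which chance gives in about 1 in 20 groups. Squalene epoxidase (Sqle) had 11.7 FPM in LIDPAD library 4, against 5.48 to 5.67 FPM in the other LIDPAD libraries. Slc22a7 had 2.07 FPM in LIDPAD library 2, against 1.81 to 1.83 FPM in the others. Argininosuccinate lyase (Asl) had 86.0 FPM in LIDPAD library 1, against 104 to 105 FPM in the others. Fatty acid synthase (Fasn) had 2467 FPM in LIDPAD library 3, against 1183 to 1266 FPM in the others.

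In 3 genes the diet difference at 48 weeks differed from that at 16 weeks by a test of the difference itself (limma). The log2 difference of the periportal P450 gene Cyp2f2 at 48 weeks minus that at 16 weeks was -2.08 (adjusted p = 0.000983), and that of the lipolysis inhibitor gene G0s2 was -1.76 (adjusted p = 0.0328). That of the predicted gene Gm17167 was 1.18 (0.53 at 48 weeks and -0.66 at 16 weeks, adjusted p = 0.0348).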

How the results depend on the processing

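Other pseudocounts, no filter, a 5 FPM filter, quantile normalization and no trend kept both main counts within 1.5 times (968 higher, 494 lower). Rescaling to equal totals gave 2879 and 190, library weights 2890 and 1780 and each column as a sample 3267 and 2533. EdgeR gave 612 higher (569 lower), DESeq2 1134 lower (1290 higher) and the joint fit 793 lower (1398 higher). Without any 1 library, higher calls ran from 67 to 3254 and lower calls from 67 to 2252, both highest without control library 3. Without another library, control 1 gave 261 and 148, control 2 gave 276 and 207, and LIDPAD 1 to 4 gave 67 to 153 and 67 to 117. Without control library 3, rescaling gave 7426 higher and 616 lower and edgeR 3168 and 2447, both chosen after seeing the data. List members called, each gene counted once, numbered 188, and weights gave 473, columns 504, leave-outs 34 to 520, and the 2 added fits 554 and 525.

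Library numbers did not pair the samples (correlations of same-numbered libraries -0.116, 0.0234 and 0.0416). With a replicate block 3 genes were called higher, 13 lower and 8 list members, and 0 genes either way between 48 and 16 weeks. LIDPAD library 1 correlated better with control library 2 (0.0503) than with its own number.

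For the diet difference against 32 weeks, no sequencing run is given in the labels. The 3 week 32 libraries (2 LIDPAD, 1 control) whose 4 columns divide the reads as those of week 48 gave 18 genes more positive and 4 more negative, with the lone control assumed to vary like the other groups, and leave-outs gave 0 to 1 of each. Against 16 weeks, rescaling gave 0 more positive and 1 more negative, the 5 FPM filter 7 more negative, and leave-outs 0 to 48 more positive and 1 to 71 more negative, both highest without control library 3.

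Signs reversed for 4 named genes, none called with 7 libraries. H19 gave 0.094 with weights, 0.836 rescaled and 0.468 with edgeR (both without control library 3), and -3.85 to 0.519 over the leave-outs. Uty gave -0.011 with weights, -0.075 with edgeR without control library 3, and -0.062 to 0.421 over the leave-outs. Fasn gave 0.095 by quantiles, 0.058 rescaled without control library 3, and -1.093 to 0.123 over the leave-outs. Ubd gave -0.136 (edgeR) and -0.120 (DESeq2). The cause of these changes was not tested. EdgeR ended 12 named calls (Mmp12, Themis, Col1a1, Col3a1, Cidec, Igkv3-2, Timp1, Vwf, Anxa5, Cd24a, Pkm and H2-Ab1), DESeq2 those of Mmp12, Col1a1 and Cidec, and the joint fit those of Pex11a, Acaa1b, Fgf21, Fitm2, Abcg8, Gpm6a and Jchain. No filter ended 8 (Col1a1, Col3a1, Cidec, Abcb11, Vwf, Anxa5, Cd24a and Cd8a), no trend 6 of these (not Abcb11 or Cd8a), a pseudocount of 0.1 those of Mmp12, Vwf and Cd24a, quantiles those of Abcb11 and Cd8a, and rescaling that of Abcb11. Leaving out a LIDPAD library ended the calls of 29 to 38 of the named genes, and leaving out control library 1 or 2 those of 25 and 23. With 3 control libraries, of which 1 stands apart, the spread between controls limits the calls, and genes under 1 FPM in most libraries were not tested.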
